A study of Mus musculus with 6 samples.

Results

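The genes described here encode the nuclear subunits of the mitochondrial respiratory chain and ATP synthase, with the assembly factors that carry the same symbols. They were taken from a table of 7373 genes measured in mouse kidney, by symbol alone: Nduf genes, Sdha to Sdhd and their assembly factors, Uqcr genes, Cox genes with a number, Atp5 genes, Cyc1 and Cycs. The symbols matched 101 genes. Of these, 3 were removed because they were listed at 0 in 1 control library, which leaves 98 genes. By complex they were 42 for complex I, 6 for complex II, 10 for complex III with cytochrome c, 24 for complex IV and 16 for ATP synthase, also called complex V.

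The kidneys came from adult male FVB/N mice, an inbred strain, with 3 samples in each of 2 groups. Transgenic mice overexpressed CryAB, a small heat shock protein, carrying the R120G missense mutation, and their kidneys were taken before heart failure set in. The α-myosin heavy chain promoter confines the transgene to cardiomyocytes, so kidney cells were not its target. Control mice carried the genotype label Control and were matched for age and sex. Both groups shared strain, sex and the adult stage, and the labels name no agent for either. The table's columns mark all 6 samples as Pre_IRI, where IRI is the usual short form of ischemia-reperfusion injury. The labels speak of triplicates and number no animals, so a p-value here reflects only how these samples vary, which may be partly technical. RNA came from frozen pieces of whole kidney, so in these bulk samples fewer cells of a type and less RNA per cell cannot be told apart.

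The respiratory chain passes electrons from NADH (complex I) and succinate (complex II) through ubiquinone, complex III and cytochrome c to oxygen at complex IV. Complexes I, III and IV pump protons across the inner membrane, and ATP synthase uses the gradient to make ATP. In the kidney, the proximal tubule and the thick ascending limb are packed with mitochondria that power sodium reabsorption. Most subunits are nuclear genes. The others are encoded by mitochondrial DNA, and none of those 13 was among the genes listed.

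No gene of the chain or of ATP synthase differed between transgenic and control kidneys in this test. With edgeR's quasi-likelihood test, adjusted by Benjamini-Hochberg over 7194 genes, 0 of 98 passed 0.05 and their smallest adjusted p was 0.997. Over all genes, 1 passed, or 0.0139%: the renin gene Ren1, at a log2 fold change of 1.25. At an unadjusted p under 0.05 there were 0 of the 98 genes, against 1.82% of all genes. DESeq2 and limma-voom also called 0 of 98 after adjustment and 0 at an unadjusted p under 0.05. On the authors' log2 values limma called 0, with 1 at an unadjusted p under 0.05.

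The fitted differences were small. The median log2 fold change, transgenic over control, was -0.01 over the 98 genes and 0.00 over all genes. It lay within 0.1 of 0 for 80 of the 98 genes (81.6%), and for 62.3% of all genes. By complex the medians were 0.02 for complex I, -0.05 for II, -0.02 for III, 0.00 for IV and -0.06 for V. The 95% interval of the difference stayed within 1.5-fold for 93 of the 98 genes, compared with 89.6% of all genes. The other 5 were Sdhd, Cox11, Cox6b2, Cox8b and Atp5f1, and for these a change of that size is within the interval. A p-value above the threshold does not show that the groups are alike.

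**Figure D1:**
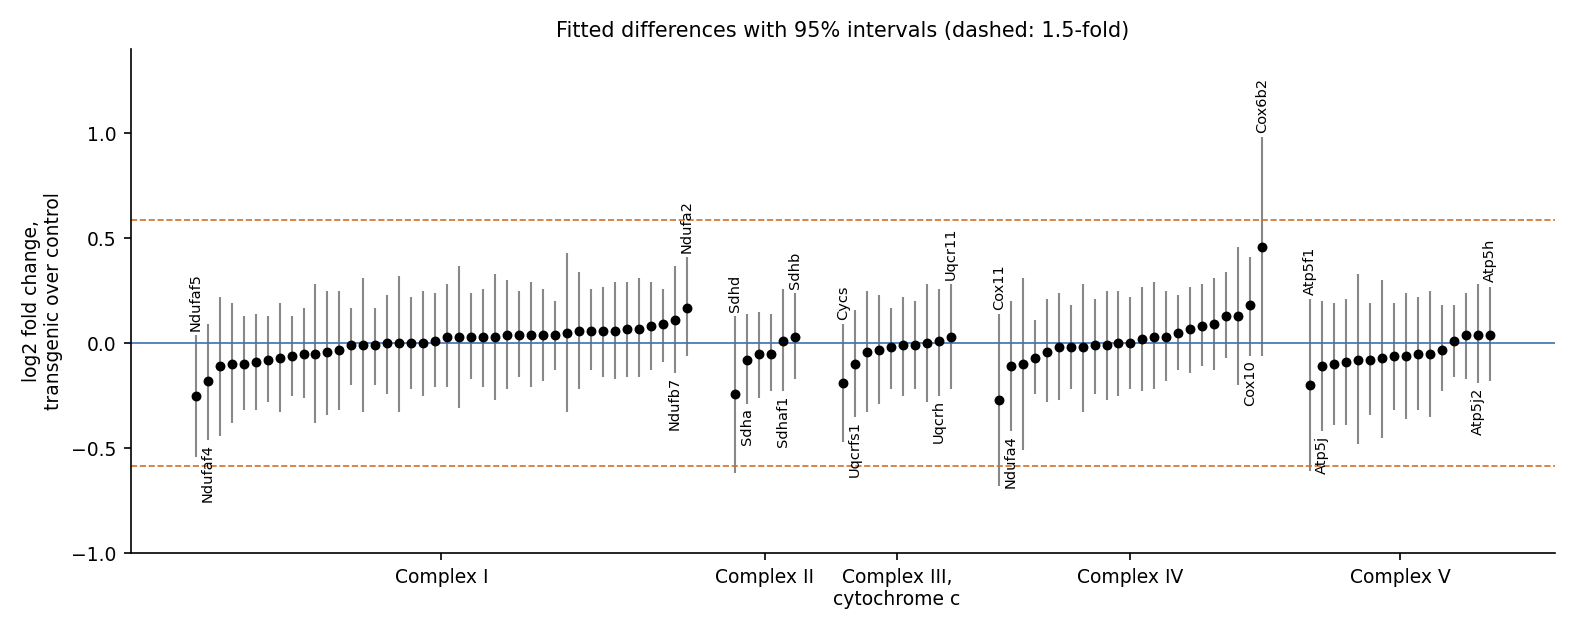
Each point is a gene's fitted log2 fold change (vertical axis, transgenic over control) with its 95% interval as a line, ordered within each complex. Dashed lines mark 1.5-fold; the labelled genes are the 2 lowest and 2 highest of each complex, Cox8b is left out for its wide interval, every interval shown crosses 0, and 93 of 98 stay between the dashed lines.

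The promoters of 5 genes are shown because they carry short matches to binding motifs that are well known in genes of oxidative phosphorylation. Promoters came from RefSeq on GRCm38.p6, as 300 bases around each annotated start, and 82 of the 98 genes had one. The 4 motifs were searched on both strands: GCGCATGCG for nuclear respiratory factor 1 (NRF1), CCGGAAGT for ETS factors such as GABP (also called NRF2), AAGATGGCG for YY1 and TCAAGGTCA for estrogen-related receptors (ERR). Printed below are 250 bases before the start and the first 30 after it, 5′ to 3′ on the gene's own strand, with the matches in capitals.
Cycs: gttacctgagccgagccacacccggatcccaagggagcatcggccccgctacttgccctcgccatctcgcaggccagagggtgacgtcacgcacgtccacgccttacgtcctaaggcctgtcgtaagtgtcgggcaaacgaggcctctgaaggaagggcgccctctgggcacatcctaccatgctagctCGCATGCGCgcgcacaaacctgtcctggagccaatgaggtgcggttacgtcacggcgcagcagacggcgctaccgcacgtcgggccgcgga
Ndufaf5: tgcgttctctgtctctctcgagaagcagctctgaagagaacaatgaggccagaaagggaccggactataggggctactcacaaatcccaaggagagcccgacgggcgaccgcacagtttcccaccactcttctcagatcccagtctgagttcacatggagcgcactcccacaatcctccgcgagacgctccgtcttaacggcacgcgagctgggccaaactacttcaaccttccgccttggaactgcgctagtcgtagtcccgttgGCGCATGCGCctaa
Cox8a: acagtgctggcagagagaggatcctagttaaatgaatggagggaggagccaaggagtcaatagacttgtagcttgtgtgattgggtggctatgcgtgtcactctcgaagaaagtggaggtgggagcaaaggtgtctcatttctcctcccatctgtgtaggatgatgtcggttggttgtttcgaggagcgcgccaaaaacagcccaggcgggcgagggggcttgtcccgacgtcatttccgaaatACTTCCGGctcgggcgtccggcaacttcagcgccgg
Atp5j: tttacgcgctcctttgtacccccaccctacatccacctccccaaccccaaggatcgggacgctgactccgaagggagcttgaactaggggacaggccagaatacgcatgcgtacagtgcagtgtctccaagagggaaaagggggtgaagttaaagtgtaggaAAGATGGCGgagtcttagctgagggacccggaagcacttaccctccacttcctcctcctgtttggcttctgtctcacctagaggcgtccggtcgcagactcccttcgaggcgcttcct
Atp5g3: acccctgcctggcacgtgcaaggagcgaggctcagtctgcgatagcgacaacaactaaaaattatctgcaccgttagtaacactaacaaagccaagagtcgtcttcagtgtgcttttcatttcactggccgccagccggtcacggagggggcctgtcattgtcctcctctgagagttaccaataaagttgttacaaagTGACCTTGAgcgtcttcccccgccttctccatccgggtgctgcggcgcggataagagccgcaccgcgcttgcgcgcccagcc
Cycs lies at chr6:50566540-50566819 on the minus strand, and its NRF1 match begins 61 bases before the start. Ndufaf5 (chr2:140170396-140170675, plus strand) has overlapping NRF1 matches on both strands, 16 bases after the start and 1 base on, since the motif is nearly its own reverse complement. Cox8a (chr19:7217587-7217866, minus strand) has an ETS match 6 bases before the start. The full 300 bases of its promoter hold 2 ETS matches, and the other is not wholly within the bases printed. Atp5j (chr16:84834947-84835226, minus strand) has a YY1 match 88 bases before the start. Another promoter of Atp5j, at chr16:84835576-84835875, has no match to any of the motifs. Atp5g3 (chr2:73911297-73911576, minus strand) has the ERR match 52 bases before the start. For Ndufaf5, Atp5j and Atp5g3 the annotated start used here lies inside the coordinates of the gene and not at its end.

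Over the 82 genes, NRF1 letters were found in 11 (13.4%), compared with 4.42% of the table's genes that have a promoter and 1.95% of all genes in the reference. YY1 letters were found in 9 (11%), against 4.25% and 1.64%. ETS letters were also found in 9 (11%), close to the 10.8% of the table's genes and above the 4.31% of all genes. ERR letters were found in 2 (2.44%), Atp5g3 and Sdhd, against 0.344% and 0.466%. At least 1 of the 4 motifs stood in 29 genes (35.4%), compared with 18.6% and 7.93%. These are matches of letters in a window and were not measured as binding.

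Regulators of mitochondrial genes, with some factors tied to these motifs, were read from a fixed list of 21, of which 11 were tested. The 11 held Yy1, Esrra and Esrrb, and no NRF1 or GABP gene. By edgeR none of the 11 passed 0.05 after adjustment, 0 had an unadjusted p under 0.05, and the median log2 fold change was -0.02. Ppargc1a, a coactivator of mitochondrial genes, read 41.7, 38.6 and 48.1 CPM (read counts scaled to the library size after TMM normalization) in controls 1 to 3 and 33.6, 39.2 and 38.6 in transgenic kidneys 1 to 3. Esrra, which encodes an estrogen-related receptor, read 231, 238 and 239 against 227, 218 and 217 CPM. The lowest control value of Esrra was above the highest transgenic value, by a margin of a few CPM, while Ppargc1a overlapped. Esrrb, another estrogen-related receptor gene, read 36.7, 42.8 and 39.35 against 41.95, 33.3 and 36.0 CPM, with overlap. Polrmt, the mitochondrial RNA polymerase, had the smallest p of the list and lay the other way, at 47.3, 52.2 and 39.9 against 54.8, 54.1 and 54.1 CPM, also without overlap. Yy1 itself read 41.4, 31.2 and 54.2 against 38.7, 35.3 and 34.5 CPM. Of the 11 genes, 2 (18.2%) had no overlap, against 5.98% of all genes. The genes given with values here were chosen after their values were seen.

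Levels per transcript length differed widely with the role of the protein. Subunits of ATP synthase and complex IV were highest. Atp5g3, which encodes subunit c of the rotor ring, averaged 2346 CPM per kb over the 6 kidneys, Atp5b, the catalytic β subunit, 2251, and Cox8a, a small complex IV subunit, 2057. The medians were 1342 CPM per kb for the 10 accessory subunits of complex IV, 1169 for the 5 F1 subunits and 1046 for the 6 membrane subunits of ATP synthase. They were 364 for the 7 core and 375 for the 27 accessory subunits of complex I, and 296 for the 4 subunits of complex II. Assembly factors, which build the complexes and are not part of them, had medians of 25.3 (complex I), 22.8 (complex II) and 22.7 (complex IV) CPM per kb. The lowest levels were those of Ndufa4l2 at 7.27, Cox6b2 at 7.83 and Cox15 at 9.54 CPM per kb. Lengths are of 1 reference transcript per gene, and for 8 of the 98 genes the annotated principal transcripts differ over 1.5-fold in length.

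**Figure D2:**
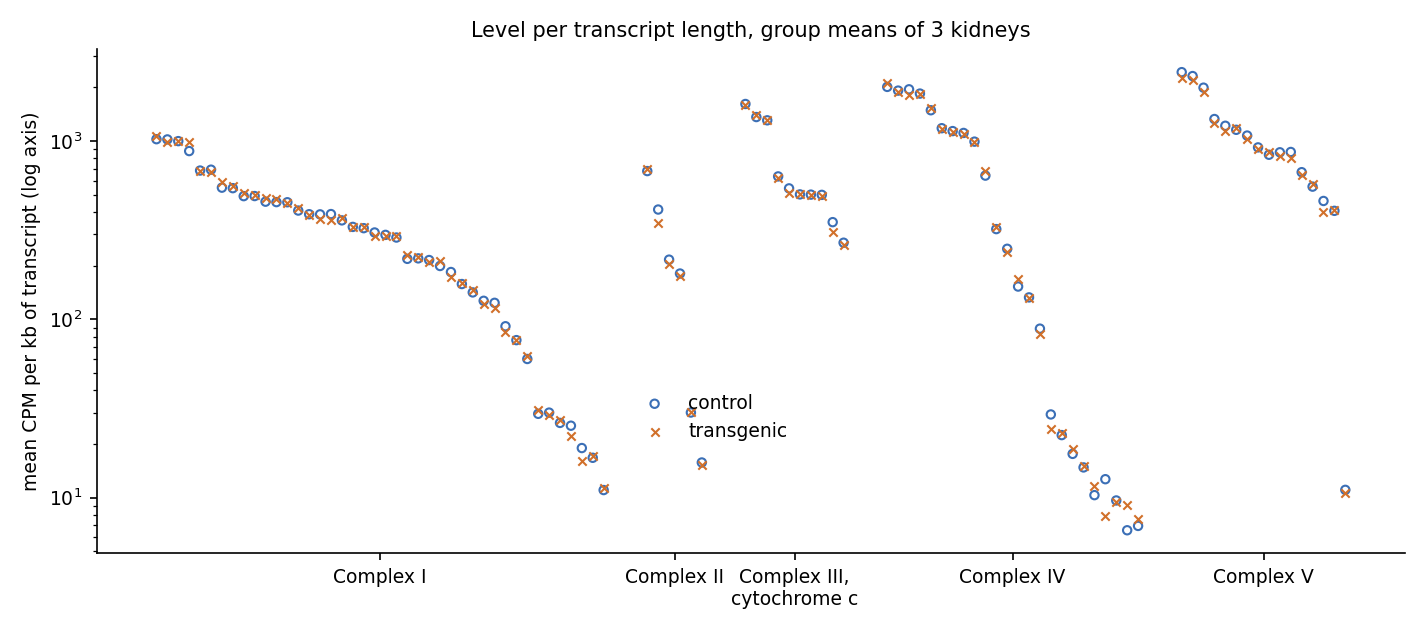
Group means of 3 kidneys, in CPM per kb of transcript on a log axis, for each gene ordered within its complex; circles are control and crosses transgenic. The 2 symbols nearly coincide for most genes, Atp5g3 and Atp5b (2346 and 2251 CPM per kb over all kidneys) stand at the top, and most assembly factors form the lower end of their complexes.

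The genes moved together from library to library. Each gene's log2(CPM + 0.5) was taken relative to its own mean over the 6 kidneys. The median over the 98 genes was 0.05, -0.16 and 0.11 in controls 1, 2 and 3, and 0.00, 0.03 and -0.04 in transgenic kidneys 1, 2 and 3. Over all genes it was within 0.01 of 0 in every library. In 396 other genes no longer than the median of the 98, control 2 also had the lowest median, but transgenic kidney 2 had the highest. The medians were 0.02, -0.09 and 0.04 in controls 1, 2 and 3, and 0.03, 0.06 and -0.06 in transgenic kidneys 1, 2 and 3. Those of the controls were smaller in size than in the 98 genes, and those of the transgenic kidneys larger. Control 2 held the lowest value of 73 of the 98 genes (74.5%), against 20.5% of all genes. Control 3 held the highest value of 55 (56.1%), against 34.8% of all genes. All transgenic medians lay between those of controls 2 and 3.

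The spread was widest for ATP synthase. The summed level of its 16 genes was 16790, 14350 and 18950 CPM in the controls and 15570, 16260 and 16110 CPM in the transgenic kidneys, or 16700 ± 2297 against 15980 ± 365 CPM (mean ± SD, n = 3 each). Complex I summed to 12520, 10800 and 12620 against 12190, 12430 and 11590 CPM. Complex II summed to 2568, 2346 and 2896 against 2464, 2476 and 2523 CPM. In each of the 5 complexes control 2 was the lowest library and control 3 the highest. Complex III with cytochrome c summed to 7195, 6155 and 7795 against 6801, 7031 and 6688 CPM, and complex IV to 9875, 8665 and 10300 against 9791, 9792 and 9233 CPM. The transgenic values lay inside the control range for every complex.

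**Figure D3:**
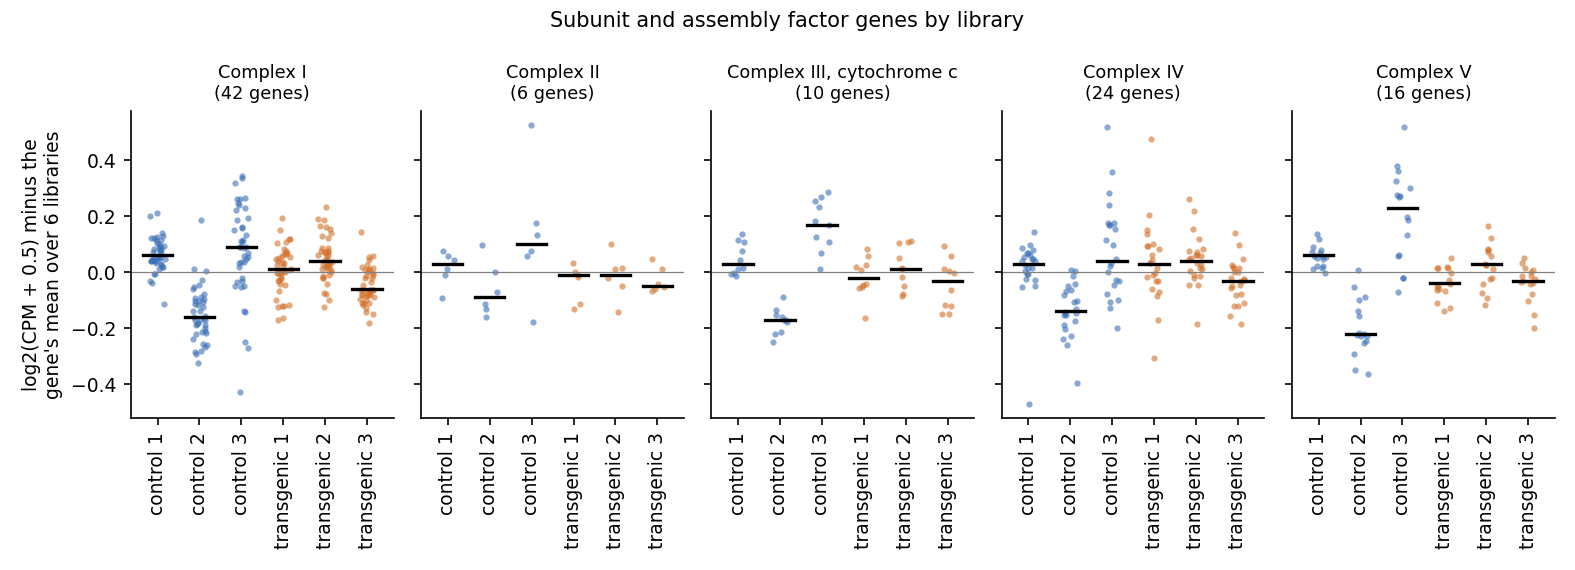
Each point is 1 gene in 1 library, as log2(CPM + 0.5) minus the gene's mean over the 6 libraries (vertical axis), in 1 panel per complex; black bars are medians, blue is control and orange transgenic, and Cox8b is left out of the points. Control 2 has the lowest median in every panel, and for complex V controls 2 and 3 are at -0.22 and 0.23 with the transgenic libraries between them.

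Base composition moved with this pattern in part. Across 98 genes, the deviation in control 3 had a Pearson r of -0.34 with the GC content of the transcript, and -0.53 across 7006 genes with a known value; genes of 1 library share its preparation and are not independent. In the 33 genes of lowest GC content the median deviation in control 3 was 0.18, and in the 33 of highest GC content it was 0.01. In control 2 the corresponding medians were -0.17 and -0.12, so the low values there were found at both ends. With log2 transcript length, the deviation in control 2 had a Pearson r of 0.24 across the 7006 genes and -0.04 across the 98. After a joint correction for GC content and length the medians over the 98 genes were -0.09 in control 2 and 0.05 in control 3. The same 33 low-GC genes had 26 log2 fold changes below 0, and the 33 high-GC genes had 11. Genes other than the 98 had like shares below 0: 1750 of 2402 at GC contents of 32.89% to 49.05%, and 785 of 2495 at 54.17% to 72.83%. These ranges reach further out than those of the 33 low-GC and 33 high-GC genes. The parts of GC content and of length in the spread between libraries were not separated, and were not tested beyond this joint correction.

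**Figure D4:**
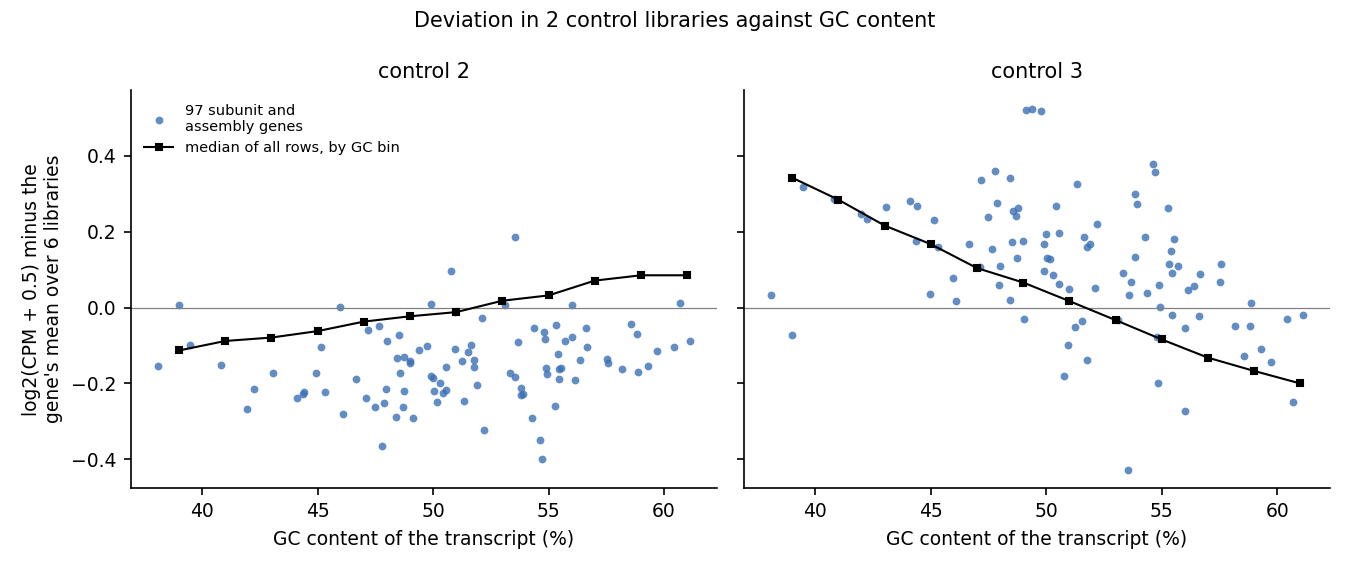
Deviation of each gene in control 2 (left) and control 3 (right), as log2(CPM + 0.5) minus its mean over 6 libraries, against the GC content of its transcript in percent; blue points are 97 genes (Cox8b left out) and the black line is the median of all genes by GC bin. In control 3 the points fall with GC as the line does (r of -0.34 over 98 genes), and in control 2 most points lie below the line at all GC contents.

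Leaving out control 2 or control 3 moved the fitted difference in opposite directions. The sign of the median turned without control 3, and also without control 1 (0.01) and without transgenic kidney 3 (0.02). Without control 2 the median log2 fold change of the 98 genes was -0.07, and -0.16 for ATP synthase. Without control 3 it was 0.05, and 0.04 for ATP synthase. Without control 2, 29 genes had no overlap between groups, 28 of them lower, which is 29.6% against 24.6% of all genes with those 5 libraries. At an unadjusted p under 0.05 there were 7 of 98 without control 2, against 8.3% of all genes, and 0 without control 3. None was called in either case, with a smallest adjusted p of 0.578 without control 2 by edgeR's quasi-likelihood test.

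Complex I takes electrons from NADH. Its 7 nuclear core subunits, which carry the flavin and iron-sulfur centres, had log2 fold changes of -0.10 to 0.07. Ndufv1, the NADH-binding subunit, read 684, 582 and 665 CPM in controls 1 to 3 and 585, 619 and 626 in the transgenic kidneys. Ndufs1, the largest iron-sulfur subunit, read 237, 218 and 275 against 227, 222 and 233 CPM. For both the transgenic values lay inside the control range. The 27 accessory subunits, which surround the core, ranged from -0.11 to 0.17, and the highest was Ndufa2 at 547, 476 and 483 against 590, 605 and 502 CPM. Its log2 fold change was 0.17 (95% interval -0.06 to 0.41). Ndufb7 followed at 0.11 (-0.14 to 0.37).

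Ndufaf5, a complex I assembly factor at chr2:140170584-140218965, was the single gene of the 98 whose groups did not overlap (1.02%), against 5.98% of all genes. It read 21.3, 19.4 and 25.7 CPM in controls and 18.6, 18.9 and 18.5 in transgenic kidneys, so all transgenic values were below the lowest control by under 1 CPM. Its log2 fold change was -0.25 ± 0.13 (SE), with an adjusted p of 0.997 in edgeR's quasi-likelihood test. Ndufaf4, another assembly factor of complex I, read 88.5, 80.4 and 107 against 76.4, 83.5 and 83.2 CPM, with overlap. The 8 assembly factors of complex I had a median log2 fold change of 0.04, and 5 of 8 were above 0.

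Complex II is succinate dehydrogenase, shared with the citric acid cycle and encoded wholly in the nucleus. Sdhd, 1 of the 2 membrane anchors, at chr9:50596340-50603849, read 433, 427 and 664 CPM in controls and 421, 418 and 448 in transgenic kidneys. Control 3 stood apart, and the other 2 controls lay within the range of the transgenic values. The log2 fold change was -0.24 (95% interval -0.62 to 0.13), and without control 3 it was -0.00. Sdha, the flavoprotein that oxidises succinate, read 614, 579 and 687 against 563, 588 and 629 CPM. Sdhb, the iron-sulfur subunit, read 806, 701 and 815 against 799, 790 and 789 CPM, and Sdhc, the other anchor, 591, 513 and 615 against 561, 553 and 541 CPM. The assembly factor Sdhaf1 had a log2 fold change of 0.01.

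Complex III passes electrons from ubiquinol to cytochrome c. Cycs, which encodes cytochrome c and lies at chr6:50562563-50566569, read 1122, 917 and 1244 CPM in controls and 911, 1027 and 938 in transgenic kidneys. Its log2 fold change of -0.19 (95% interval -0.47 to 0.09) was the lowest of the 10, and the groups overlapped through control 2. After the joint correction for GC content and length it was -0.06, no longer the lowest. Cyc1, cytochrome c1, read 757, 707 and 810 against 722, 760 and 757 CPM. Uqcrfs1, the Rieske iron-sulfur protein, read 735, 632 and 850 against 686, 676 and 714 CPM. The core proteins Uqcrc1 and Uqcrc2 had log2 fold changes of -0.01 and -0.04, and the small subunits Uqcr11 and Uqcrh 0.03 and 0.01. Control 2 was lowest in 9 of the 10 genes and control 3 highest in 8.

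Complex IV, cytochrome c oxidase, reduces oxygen. Its catalytic core is encoded by mitochondrial DNA and was not among the genes listed. Of the nuclear subunits, Cox4i1 read 1395, 1239 and 1486 CPM in controls and 1368, 1430 and 1324 in transgenic kidneys, with group means of 1373 and 1374. Cox5a, another structural subunit, had a log2 fold change of -0.01 and Cox6a1 0.05. Ndufa4, named for complex I but a subunit of complex IV, read 1217, 964 and 1382 against 1111, 1175 and 1019 CPM. The 10 accessory subunits ranged from -0.11 to 0.08.

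The 9 assembly factors of complex IV ranged from -0.27 to 0.18. Cox11, which delivers copper to the catalytic core, read 31.1, 30.03 and 46.4 CPM in controls against 26.0, 33.6 and 29.8, with a log2 fold change of -0.27 (95% interval -0.68 to 0.14). Control 3 was the highest library and the other 2 lay within the transgenic range. Cox10, which makes heme O for the enzyme, read 32.4, 30.2 and 27.8 against 33.0, 37.3 and 32.0 CPM, at 0.18 (-0.06 to 0.41). Cox14 read 113, 102 and 116 against 124, 126 and 114 CPM, at 0.13 (-0.07 to 0.34).

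Several subunits of complex IV have tissue isoforms. Cox7a1, the muscle and heart form of Cox7a2, read 36.8, 25.1 and 42.7 CPM in controls and 29.5, 34.5 and 33.6 in transgenic kidneys, and its level per kb was 7.77% of that of Cox7a2. Cox7a2l, which helps to join complexes into supercomplexes, had a log2 fold change of -0.07. Cox6b2, known as the testis form of Cox6b1 and located at chr7:4751792-4753094, read 2.91, 4.02 and 3.98 against 6.07, 5.16 and 3.84 CPM, from rounded counts of 79, 141 and 185 against 173, 118 and 121. Its log2 fold change of 0.46 (95% interval -0.06 to 0.98) was the highest of the 98 genes, with transgenic kidney 3 inside the control range. Its level per kb was 0.669% of that of Cox6b1. Ndufa4l2, a hypoxia-responsive relative of Ndufa4, read 7.18, 6.04 and 6.25 against 7.09, 7.17 and 7.02 CPM. Cox4i2 and Cox6a2, the lung and muscle forms, were not among the genes tested.

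Cox8b, the heart, muscle and brown fat form of Cox8a at chr7:140898942-140900446, differed widely between libraries of the same group. Its rounded counts were 0, 480 and 2 in controls 1 to 3 and 100, 6 and 149 in transgenic kidneys 1 to 3. At the depth of control 1 (28.1 M counts), a count of 0 allows up to 3 counts, and such limits cover counting error only. Of the fat markers measured, 2 were likewise lowest in controls 1 and 3, a choice made with the values in view. Cfd, which encodes adipsin, had counts of 6, 2709 and 2 against 818, 157 and 578, and Car3 51, 1384 and 41 against 313, 75 and 449. Control 2 was the highest library for all 3 genes. The other 2 measured fat markers shared this order in part or not. Fabp4 read 87.5, 177.7 and 121.5 against 125.9, 99.1 and 125.9 CPM. It was also highest in control 2 and lowest in control 1, but control 3 was not low. Lpl, highest in transgenic kidney 2, read 361, 423 and 368 against 398, 508.5 and 367 CPM. Of 12 fat markers in the list 4 were measured, and Adipoq, Plin1, Ucp1, Cidea and others were not among the genes tested. The summed fat markers were 451 to 718 CPM in controls and 525 to 618 CPM in transgenic kidneys, with control 2 the highest library. Most of the sum came from Lpl and Fabp4, which other kidney cells also express. The muscle list had 3 of 13 measured, of which Cox7a1 and Cox8b are themselves described here, and the other was Tnnc1. Cox8a read 1185, 1096 and 1035 against 1205, 1122 and 1145 CPM. The part of fat tissue in the Cox8b values was not tested, and its fitted difference changes sign with the method and is not read here.

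**Figure D5:**
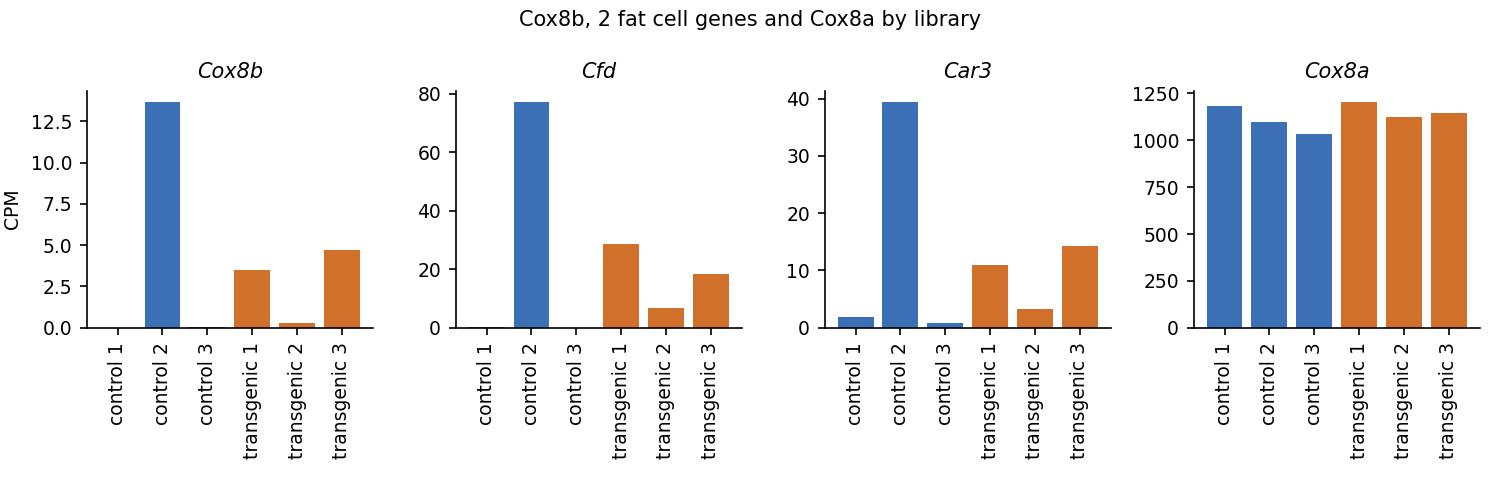
Bars are CPM in each library for Cox8b, the fat cell genes Cfd and Car3, and Cox8a, with control in blue and transgenic in orange; each panel has its own linear axis from 0. Cox8b, Cfd and Car3 are highest in control 2 and near 0 in controls 1 and 3, while Cox8a lies between 1035 and 1205 CPM in all 6.

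ATP synthase is made of a catalytic F1 head, a membrane part with the rotor ring, and a peripheral stalk that holds them together. The 5 F1 subunits ranged from -0.08 to 0.04. Atp5b read 4372, 4018 and 4890 CPM in controls and 3909, 4233 and 4455 in transgenic kidneys. Atp5a1, the α subunit, read 2668, 2317 and 2962 against 2477, 2508 and 2613 CPM, and Atp5c1, the γ shaft, 775, 640 and 923 against 769, 715 and 780 CPM. For all 3 the groups overlapped. Of the 16 genes, 12 had a log2 fold change below 0, at a median of -0.06, and control 2 was lowest in 14.

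The peripheral stalk had the widest spread between controls of any group of subunits with a role in ATP synthase, with median deviations of -0.24 in control 2 and 0.31 in control 3. Atp5f1, subunit b of the stalk, at chr3:105942698-105959263, read 686, 556 and 975.4 CPM in controls and 629, 627 and 674 in transgenic kidneys. Its log2 fold change was -0.20 (95% interval -0.61 to 0.21), and 0.05 without control 3. Atp5j, coupling factor 6, was at -0.11 and read 641, 519 and 771 against 622, 584 and 582 CPM. Atp5h, subunit d, was at 0.04, as was Atp5j2, subunit f of the membrane part.

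Subunit c is encoded by 3 genes, Atp5g1, Atp5g2 and Atp5g3, whose mature proteins are identical. Atp5g3 read 1774, 1425 and 2006 CPM in controls and 1589, 1642 and 1616 in transgenic kidneys. Per kb, Atp5g3 gave 64.5% ± 2.82 of subunit c transcripts in controls and 63.3% ± 0.133 in transgenic kidneys (SD, n = 3 each). Atp5g1 gave 24.6% ± 1.61 and 25.3% ± 0.238, and Atp5g2 10.9% ± 1.28 and 11.5% ± 0.113. The make-up of the pool differed between groups by less than the spread between controls. Reads of genes with near-identical processed copies, which several of these families have, could be shared by the counting, and the counting program is not known.

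Other genes of oxidative phosphorylation were read from a fixed list. Of 42 further assembly and stability factors 36 were measured, and 0 were called in either direction by edgeR after adjustment, 1 had an unadjusted p under 0.05 (Nubpl), with 15 above 0, 21 below 0 and a median of -0.02. Nubpl, which inserts iron-sulfur clusters into complex I, read 17.4, 17.9 and 22.2 CPM in controls and 14.6, 13.9 and 16.7 in transgenic kidneys. Its log2 fold change was -0.34 ± 0.14 (SE) with an adjusted p of 0.997 in edgeR's test. Of the 36 genes, 4 (11.1%) had no overlap between groups, against 5.98% of all genes: Nubpl, Lyrm5 and Cmc1 were lower and Lrpprc higher. Lyrm5, an LYR-motif protein, was at -0.17 ± 0.09, Taco1, a translation activator of mitochondrial COX1, at -0.25 ± 0.17, and Oxa1l, the inner membrane insertase, at 0.13 ± 0.09.

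Pathways that feed the chain were also read from fixed lists. Of 20 genes for other electron entry and coenzyme Q synthesis 17 were measured, 0 were called and the median log2 fold change was -0.03. Of 18 citric acid cycle genes 16 were measured and 0 were called, with 15 below 0 and a median of -0.04. Over all genes, 3574 of 7194 were below 0. The median GC content of the 16 genes was 48.92%, and control 3 was the highest library for 12 of them. Among genes other than those of the chain, at GC contents of 32.89% to 49.05%, 1750 of 2402 were below 0. The part of GC content in the direction of the citric acid cycle genes was not tested. The median deviation of the 16 citric acid cycle genes was 0.02, -0.10 and 0.18 in controls 1, 2 and 3, the same order as in the chain. In transgenic kidneys 1, 2 and 3 it was -0.07, -0.08 and 0.04, which is not the chain's order. Control 2 was lowest for 6 of the 16 genes and transgenic kidney 2 for 5.

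Tissue make-up was read from markers, as whole kidney mixes segments of unequal mitochondrial content. All 20 proximal tubule markers were measured, with summed levels of 85390, 76480 and 82980 CPM in controls and 78780, 78710 and 77030 in transgenic kidneys. Control 2 had the lowest sum, of which Kap, a kidney androgen-regulated gene, gave 47460 of 76480 CPM. Marker by marker, control 2 was lowest for 2 of 20 and transgenic kidney 2 for 8 of 20, with median deviations of -0.02 and -0.10. All 9 thick ascending limb markers were measured, at 4079 to 4712 CPM in controls and 3898 to 4279 CPM in transgenic kidneys. All 9 had log2 fold changes below 0, at a median of -0.10, against 3574 of 7194 over all genes. Of the 9, 2 (22.2%) had no overlap between groups, both lower, against 5.98% of all genes. Control 3 was the highest library for 7 of the 9, and their median GC content was 48.92%. Among genes other than those of the chain, at GC contents of 32.89% to 49.05%, 1750 of 2402 were below 0. The part of GC content in the direction of these markers was not tested. The part of segment make-up in the levels of the chain was not tested.

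Across libraries, total estimated counts were 28.1, 34.9 and 47.6 M in controls and 29.0, 23.5 and 31.7 M in transgenic kidneys, and the 98 genes took 4.26% to 5.14% of them. Median counts per gene of the chain were 8094 to 16164, so for a gene at the median counting error was small beside the spread between libraries. Counts were far lower for Cox6b2 (79 to 185) and Cox8b (0 to 480). In control 3, 178 genes were listed at 0, of which 177 were matched to chromosome X or Y, and none of the X or Y genes listed was above 0 there. The 3 chain genes removed for this reason, Ndufa1, Ndufb11 and Cox7b, are on X. Ndufb11 read 508, 468 and 0 CPM of the table's total in controls and 560, 521 and 512 in transgenic kidneys. Ndufa1 read 401, 320 and 0 against 363, 402 and 345, and Cox7b 548, 451 and 0 against 580, 507 and 520. These 3 genes were left out by the rule and are given with no test.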

How the data were processed

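RNA of 3 transgenic and 3 control kidney samples was sequenced, per the labels. The authors deposited 1 table whose raw columns hold estimated counts per gene (not whole numbers) and whose normalized columns hold log2 values, used for 1 alternative. Of 24 columns of per-sample values, 12 match these samples and the other 12 were not used. Genes needed, per the file headers, an NRPKM between 5.0 and 84233.281 in at least 2 of 6 samples. The build was mm10, per the submitters' processing notes; the aligner, counter, annotation and strandedness were not given in the sources used here.

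Estimated counts were rounded. The 7195 genes above 0 in control 3 were fitted by edgeR 4.0.16 (R 4.3.3): filterByExpr, which removed 1, TMM, quasi-likelihood test, group as the only term, two-sided, Benjamini-Hochberg threshold 0.05. With 3 against 3, an exact permutation test cannot go below 0.1. The SE is the log2 fold change over the root of F. CPM use TMM library sizes; deviations use a pseudocount of 0.5. Coordinates are RefSeq GRCm38.p6; lengths and GC content are from 1 principal GENCODE transcript per gene. Scripts were tested on simulated data.

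The members and lists were chosen with earlier results of these data known. Named were the 8 smallest p-values, the 2 highest and 2 lowest of each complex, fixed catalytic subunits and isoforms, the 3 highest and lowest per length, and the 4 smallest p-values of the assembly list; 1 of the fixed genes is not reported here. Ppargc1a, Esrra, Esrrb, Yy1, Polrmt, Cmc1, Lrpprc, the fat markers and the promoters shown were chosen after their values or sequences were seen. Alternatives were DESeq2 1.42.0 and its size factors, limma 3.58.1 (voom, and on the authors' log2 values), no TMM, all rows, no filter, a mean CPM of 10, GC and length correction, the replicate block and each library left out.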

Additional observations from a re-analysis of the deposited data

How the results depend on the processing

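In none of the settings tried was any of the 98 genes called, the number called with an adjusted p of 0.1 was also 0, and the median log2 fold change stayed between -0.07 (without control 2) and 0.05 (without control 3). The groups hold 3 samples each, which limits the precision. The part of depth in it was not tested. Fits that leave out a library assume a common spread. With the stricter filter 95 of the 98 genes were tested.

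The number of genes called over all 7194 was 1. It was 2 with DESeq2, 0 on all rows, 0 on the authors' log2 values, 0 with total counts, and 0 to 2 when 1 library was left out. The number of the 98 genes without overlap between groups was 1. It was 4 after the GC and length correction, 6 with total counts, and 2 to 29 when 1 library was left out. The cause was not tested, except that fewer samples overlap less often: without control 2, 24.6% of all genes had no overlap.

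Signs changed in 25 of 48 named genes in at least 1 setting. After the GC and length correction Atp5c1 was at 0.01, Atp5g2 at -0.03, Cox5a at 0.01, Cox6a1 at -0.01, Uqcr11 at -0.04 and Uqcrc2 at 0.05. With the sign kept, Cycs went from -0.19 to -0.06 and Ndufaf4 from -0.18 to -0.03. Cox8b, at -0.66 in the main setting, was at 2.63 on the authors' log2 values, 2.95 with limma-voom and 1.86 with the replicate block. The cause was not tested.

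With 1 library left out, the log2 fold changes that changed sign spanned Atp5a1 -0.15 to 0.02, Atp5c1 -0.17 to 0.09, Atp5f1 -0.37 to 0.05, Atp5g1 -0.10 to 0.03, Atp5g2 -0.01 to 0.05, Atp5g3 -0.23 to 0.01, Atp5h -0.05 to 0.10, Atp5j -0.24 to 0.04, Atp5j2 -0.05 to 0.12, Cox15 -0.10 to 0.04, Cox5a -0.08 to 0.08, Cox6b1 -0.07 to 0.02, Cox7a1 -0.29 to 0.07, Cox7a2 -0.11 to 0.07, Cox8b -1.26 to 6.55, Cyc1 -0.07 to 0.03, Ndufa4 -0.24 to 0.01, Sdhaf1 -0.07 to 0.07, Sdhb -0.03 to 0.07, Uqcr11 -0.04 to 0.11, Uqcrc1 -0.07 to 0.03, Uqcrc2 -0.15 to 0.10, Uqcrfs1 -0.20 to 0.02 and Uqcrh -0.08 to 0.10. Cox4i1, at 0.00 with all libraries, spanned -0.07 to 0.06.

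Whether replicate numbers pair the kidneys is not known. The deviations of same-numbered samples had correlations of 0.0047, 0.0188 and 0.34. These cannot decide it, as deviations from a mean of 3 samples are not independent. With the replicate number as a block, 0 of the 98 genes and 1 of all genes were called, the median was 0.00, and 1 gene had no overlap. Number 3 alone correlated best with its own number.

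The count of genes lowest in control 2 (73) was 63 with total counts, 73 with DESeq2 size factors, 54 after the GC and length correction and 74 on the authors' log2 values. The count highest in control 3 (55) was 52, 55, 44 and 57. These counts by library were added after seeing the data.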
